A study of Mus musculus with 4 samples.

Results

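The genes described here carry sugar through the cell. They are 39 genes of glucose import, glycolysis, its PFKFB regulators, lactate formation and export, the pentose phosphate pathway and fructose bisphosphatase. They were listed by pathway, with earlier results of these data known. All 39 were found among the 23746 gene rows (23284 distinct symbols) of each tumor's table, 38 under the current symbol and Pkm under its older symbol Pkm2. A gene was tested where 2 or more tumors reached 1 FPKM, which held for 37 of the 39; Slc2a3 and Pklr fell short and have no test. FPKM (fragments per kilobase of transcript, scaled to the total of mapped fragments) is corrected for gene length, so levels of different genes may be compared.

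The tumors were primary mammary tumors of female mice, 2 of them WapCreC;Rank;Brca1;p53 triple-mutant (26043 and 26044) and 2 WapCreC;Brca1;p53 double-mutant (26048 and 26050). Animals of both genotypes carried the WapCreC transgene with floxed Brca1 and floxed p53 alleles, and the triple-mutants carried floxed Rank (Tnfrsf11a, the receptor of the cytokine RANKL) in addition. Recombination was aimed at the epithelium of the gland, luminal as well as basal, so RNA of stromal and immune cells with unrecombined alleles is counted in every tumor too. The study names the females as littermates, without a litter for any single tumor. Age and grade of each sequenced tumor were not given in the sources used here. The study saw intermediate-grade but no high-grade tumors in triple-mutants, and both grades in double-mutants. Grade and genotype therefore cannot be fully told apart. Exact permutation of 2 against 2 tumors cannot give a p below 0.333, and a p-value from a fit measures the spread between these 4 tumors alone. In bulk tumor RNA, fewer cells of a type and less RNA per cell cannot be told apart.

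Glycolysis splits glucose into pyruvate and returns ATP and NADH, and lactate dehydrogenase regenerates the NAD that lets it run on. Many of its steps are served by several genes whose enzymes differ in tissue and regulation, such as hexokinases Hk1 and Hk2, aldolases Aldoa and Aldoc, or lactate dehydrogenase subunits Ldha and Ldhb. The pentose phosphate pathway branches off at glucose 6-phosphate, with an oxidative arm that makes NADPH and a non-oxidative arm that makes ribose phosphate and returns carbon to glycolysis. Tumors commonly run glycolysis at a high rate, and hypoxia-inducible factor and Myc proteins are known to induce many of its genes.

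Of the targeted genes, Tnfrsf11a measured 2.07 and 0.962 FPKM in the triple-mutant tumors and 10.6 and 11.9 FPKM in the double-mutant tumors, lower in both triple-mutant tumors, the direction the labels give (log2 fold change -2.32 ± 0.37 SE, limma adjusted p = 0.225). Brca1 measured 3.26 and 3.28 FPKM against 3.84 and 5.69 FPKM. Trp53 measured 15.7 and 87.8 FPKM against 149.7 and 103 FPKM, so tumor 26043 stood apart in p53 RNA. Summed FPKM ran from 690775 to 796031 per tumor and 12150 to 12681 genes reached 1 FPKM. Depth in reads is unknown from these tables.

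Marker genes of cell types differed between these tumors and stand beside the results below. For comparison, 21.3% of all genes tested were higher in both triple-mutant tumors and 22.9% in both double-mutant tumors. All 4 basal epithelial markers (Krt5, Krt14, Krt17, Trp63) were higher in both triple-mutant tumors, with a summed level of 1671 and 359 FPKM against 7.71 and 14.5 FPKM. The 5 luminal markers summed to 2747 FPKM in 26043, only 403 FPKM in 26044, and 2158 and 1907 FPKM in the double-mutants; Krt8, Krt18, Epcam and Elf5 were lower and Krt19 higher in both triple-mutant tumors. Of 8 myeloid markers found, 5 were higher in both double-mutant tumors and 0 in both triple-mutants (summed 248 and 160 FPKM against 578 and 350 FPKM; Lyz2, Itgam, Emr1 and Cd68 had an unadjusted p under 0.05). Of 6 fibroblast markers, Col1a1, Col1a2, Col3a1 and Lum were higher in both double-mutant tumors and Pdgfra in both triple-mutants, and the 6 summed to 196 and 112 FPKM against 881 and 425 FPKM. The 8 adipocyte markers summed to 2101 FPKM in 26048 against 20.1 to 268 FPKM in the other tumors, with Adipoq and Plin1 under 1 FPKM outside 26048 and Lipe and Cfd higher in both double-mutants. The 12 skeletal muscle markers summed to 57.5 FPKM in 26050 and to 5.10 to 11.3 FPKM elsewhere. The 6 erythroid markers found summed to 34.7 and 206 FPKM against 50.2 and 69.6 FPKM, taking the first row of both alpha globin genes, near-identical copies that can share reads and are listed in 2 rows each; in that row both were lower in both triple-mutants. Of the endothelial, erythroid and neutrophil markers, 0 had an unadjusted p under 0.05.

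The most abundant genes of the list were those of lower glycolysis. Means over the 4 tumors exceeded 100 FPKM for 16 members, lay between 10 and 100 FPKM for 10, between 1 and 10 FPKM for 12, and below 1 FPKM for Pklr, the pyruvate kinase of liver and red cells, which was listed at 0 in 3 tumors and at 0.0333 FPKM in 26050. Pkm, the pyruvate kinase of muscle and proliferating cells, Aldoa and Gapdh were at the top by FPKM. The place of Gapdh depended on the estimate, since its FPKM was 1.46 to 1.66 times the midpoint of its own Cufflinks interval. Those midpoints, 574 and 681 FPKM against 571 and 796 FPKM, lay below those of Ldha, 604 and 914 FPKM against 625 and 1295 FPKM. Together the 39 genes made up 0.849% and 1.17% of all summed FPKM in the triple-mutant tumors and 0.963% and 1.32% in the double-mutants. These shares overlapped between genotypes, and 26044 and 26050 were the higher tumor of their genotype. Gapdh, Eno1, Ldha and other abundant genes have processed pseudogenes that can share reads with them, and 10 members overlap another gene row, the most abundant of which is Pitrm1 (23.6 to 27.6 FPKM) at Pfkp. How the estimates divided such reads was not given in the sources used here.

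**Figure D1:**
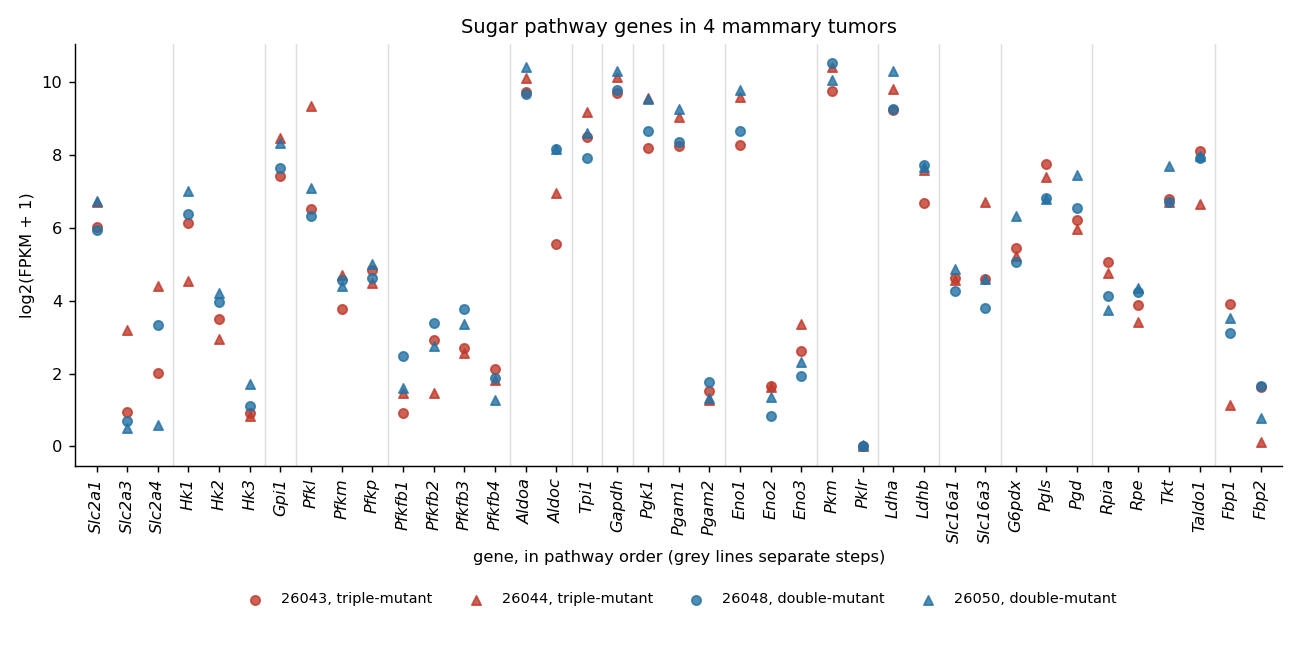
Level of each of the 39 genes in each tumor, as log2(FPKM + 1), in pathway order from glucose import on the left to fructose bisphosphatase on the right. Red marks are triple-mutant and blue marks double-mutant tumors, 1 mark per tumor. Both triangles (26044 and 26050) lie above both circles (26043 and 26048) for Gpi1, Pfkl, Aldoa, Tpi1, Gapdh, Pgk1, Pgam1, Eno1 and Ldha. The other genes from Gpi1 to Ldha, such as Pfkm, Aldoc and Pkm, do not show this.

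Promoter letters were read for 37 members, which have 56 windows in RefSeq (GRCm38.p6), and Slc2a3 and Slc2a4 have no entry. ACGTG, the core letters of the hypoxia response element, was sought on both strands in the 250 bases before each start, as was CACGTG, the E-box bound by Myc proteins, each match of which is also a match of ACGTG on both strands. ACGTG was present in 18 of 56 windows (32.1%), against 16.6% of all 32851 windows, and CACGTG in 6 windows (10.7%), against 6.02%. By gene, 14 of 37 members (37.8%) held ACGTG in at least 1 window, against 18.5% of all 27025 symbols, and 6 (16.2%) held CACGTG, against 6.86%. A match is a description of letters and not of a bound site. Stretches are shown for Ldha, Pgk1, Pgam1 and Slc2a1, which were higher in 26044 than in 26043 and in 26050 than in 26048. Slc16a3, high in 26044, is shown too. Aldoc, which had the largest absolute log2 fold change of the tested members, is shown with no match. It was higher in 26044 than in 26043 but nearly equal in the double-mutants, at 284 FPKM in 26048 and 287 FPKM in 26050. Gpi1, Pfkl, Tpi1, Gapdh and Eno1 were higher in 26044 than in 26043 and in 26050 than in 26048, held no match and are not shown. Aldoa was higher in the same tumors, held ACGTG and is not shown either. All are on the plus strand of GRCm38.p6, with matches in capitals: Ldha chr7:46845644-46845784, Pgk1 chrX:106186930-106186990, Pgam1 chr19:41911741-41911801, Slc2a1 chr4:119108685-119108735, Slc16a3 chr11:120949017-120949066 and Aldoc chr11:78324048-78324197.
Ldha: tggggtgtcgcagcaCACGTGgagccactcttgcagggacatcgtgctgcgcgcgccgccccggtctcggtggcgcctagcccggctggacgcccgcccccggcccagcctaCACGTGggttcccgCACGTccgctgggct
Pgk1: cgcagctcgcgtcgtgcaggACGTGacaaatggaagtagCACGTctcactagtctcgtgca
Pgam1: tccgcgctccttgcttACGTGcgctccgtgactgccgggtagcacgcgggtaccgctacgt
Slc2a1: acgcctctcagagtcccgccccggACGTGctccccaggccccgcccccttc
Slc16a3: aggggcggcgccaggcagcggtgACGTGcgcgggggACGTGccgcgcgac
Aldoc: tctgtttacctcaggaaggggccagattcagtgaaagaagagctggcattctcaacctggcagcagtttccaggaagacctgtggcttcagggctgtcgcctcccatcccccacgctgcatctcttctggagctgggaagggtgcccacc
The Ldha stretch held 2 copies of CACGTG and 1 further ACGTG on the minus strand. Pgk1 and Slc16a3 held 2 copies of ACGTG each, and Pgam1 and Slc2a1 held 1 each. The Slc16a3 start in RefSeq lies 583 bases inside the gene's span in the tables.

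Between genotypes, 0 of the 37 tested members passed an adjusted p of 0.05 by limma, as did 0 of all 12752 genes tested (0%). The smallest adjusted p among members was 0.456, for Aldoc. At an unadjusted p under 0.05, 2 members were higher in triple-mutant tumors (Rpia and Pgls; 5.91% of all genes) and 2 higher in double-mutants (Aldoc and Pfkfb3; 3.91% of all genes). Genotypes did not overlap for 4 members higher in both triple-mutant tumors, Eno2, Eno3, Pgls and Rpia, beside 21.3% of all genes, and for 9 higher in both double-mutants, Hk1, Hk2, Hk3, Pfkfb1, Pfkfb3, Aldoc, Ldhb, Pgd and Rpe, beside 22.9% of all genes. The remaining 24 overlapped. The median log2 fold change of the members was -0.22, against -0.022 over all genes, with 26 members below 0 and 11 above. That median was 0.023 without 26043 and 0.045 without 26050, so its sign rests on single tumors. Other settings of the fit called 0 members as well, and 1 to 6 genes of all genes under 3 of them.

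**Figure D2:**
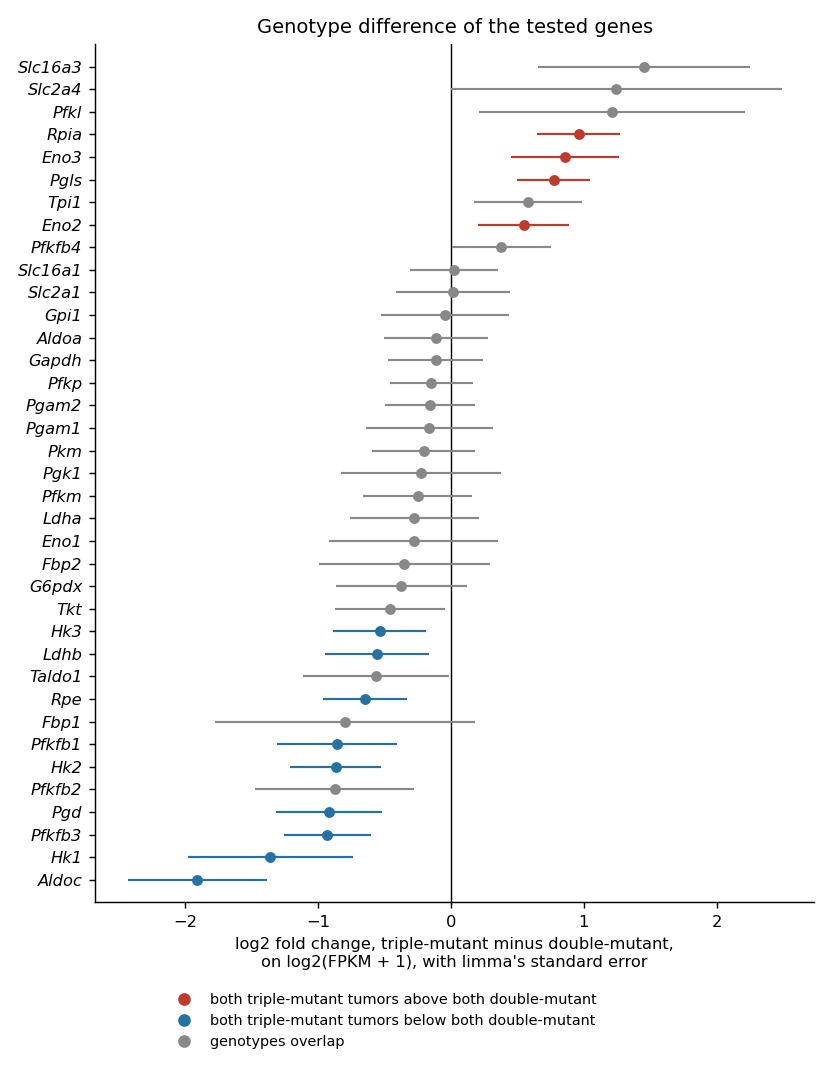
Log2 fold change of each tested member on the log2(FPKM + 1) scale, triple-mutant minus double-mutant (n = 2 tumors each), with limma's standard error as bars. Aldoc at -1.90 and Hk1 at -1.36 lie farthest to the left among genes whose genotypes do not overlap, and Rpia at 0.96 farthest to the right.

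Glucose import was carried mostly by Slc2a1, the GLUT1 transporter of dividing cells, at 64.1 and 103 FPKM in the triple-mutant tumors and 60.7 and 107 FPKM in the double-mutants. It was high in 26044 and 26050 and low in the other tumor of each genotype, with a genotype difference near 0 (log2 fold change 0.015 ± 0.43 SE) whose sign turned with the scaling. Its FPKM was 1.52 to 1.66 times the midpoint of its own Cufflinks interval. Slc2a3, the neuronal GLUT3, measured 0.920 and 8.11 FPKM against 0.616 and 0.410 FPKM. Slc2a4, the insulin-dependent GLUT4 of muscle and fat, measured 3.01 and 20.3 FPKM against 9.06 and 0.510 FPKM (log2 fold change 1.24 ± 1.24 SE, adjusted p = 0.751). Both minor transporters were highest in 26044, where they reached 6.16% and 15.4% of the summed import genes, and Slc2a1 had its smallest share there, 78.4%.

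Hexokinases trap glucose by phosphorylation, and all 3 genes of the list were lower in both triple-mutant tumors. Hk1, the broadly expressed form, measured 69.0 and 22.3 FPKM in triple-mutants and 82.0 and 128 FPKM in double-mutants (45.7 ± 33.0 against 105 ± 32.5 FPKM, SD, n = 2; log2 fold change -1.36 ± 0.62 SE, adjusted p = 0.548). Hk2, the form typical of muscle and many tumors, measured 10.3 and 6.71 FPKM against 14.8 and 17.4 FPKM (log2 fold change -0.87 ± 0.34 SE, adjusted p = 0.520). Hk3, which is known from myeloid cells, measured 0.891 and 0.773 FPKM against 1.17 and 2.26 FPKM. Tumor 26044 was lowest for each of the 3. Myeloid markers were also lower in triple-mutant tumors, and their part in the Hk3 values was not tested. Summed over the step, hexokinase RNA measured 80.3 and 29.8 FPKM against 97.9 and 148 FPKM, a difference of -67.8 FPKM (exact permutation p = 0.333, the smallest this design allows). Without 26044 the difference was -42.6 FPKM and the log2 fold change of Hk1 -0.56. Hk1 supplied 86.0% and 74.9% against 83.7% and 86.7% of it, shares that overlapped between genotypes (exact permutation p = 0.667).

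Gpi1, glucose 6-phosphate isomerase, measured 170.5 and 350.0 FPKM against 198 and 319 FPKM (log2 fold change -0.043 ± 0.48 SE), again with 1 high tumor in each genotype. Phosphofructokinase commits sugar to glycolysis. Its liver form Pfkl measured 90.4 and 648 FPKM against 79.4 and 136 FPKM (log2 fold change 1.21 ± 1.002 SE, adjusted p = 0.705), and only 26044 was high. Without 26044 the log2 fold change of Pfkl was -0.20. The muscle form Pfkm measured 12.7 and 24.9 FPKM against 22.7 and 20.1 FPKM, and the platelet form Pfkp 27.6 and 21.4 FPKM against 23.6 and 30.9 FPKM, so both overlapped between genotypes. Pfkl made up 93.3% of phosphofructokinase RNA in 26044 and 63.2% to 72.7% in the other tumors.

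The 4 PFKFB genes encode the enzymes that make and remove fructose 2,6-bisphosphate, the main activator of phosphofructokinase. Pfkfb3, the form with the highest ratio of kinase to phosphatase activity, measured 5.53 and 4.95 FPKM in triple-mutants and 12.6 and 9.31 FPKM in double-mutants (5.24 ± 0.414 against 11.0 ± 2.35 FPKM, SD, n = 2; log2 fold change -0.93 ± 0.32 SE, adjusted p = 0.496). Pfkfb1 measured 0.892 and 1.77 FPKM against 4.62 and 2.05 FPKM. Both were lower in both triple-mutant tumors. Pfkfb2 measured 6.51 and 1.78 FPKM against 9.38 and 5.74 FPKM, overlapping because 26043 lay above 26050. Pfkfb4 measured 3.33 and 2.52 FPKM against 2.70 and 1.42 FPKM, also overlapping. Summed, PFKFB RNA was 16.3 and 11.0 FPKM against 29.3 and 18.5 FPKM, lower in both triple-mutants (exact permutation p = 0.333), while the Pfkfb4 share of it was 20.5% and 22.8% against 9.22% and 7.69%.

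Aldolase cleaves fructose 1,6-bisphosphate, and its Aldoc form, best known from brain, showed the largest absolute log2 fold change of the 37 tested members. By the ratio of mean FPKM, Slc16a3 (3.52) and Pfkl (3.42) were farther apart, both through 26044, as was the untested Slc2a3. Aldoc measured 46.2 and 123 FPKM in the triple-mutant tumors and 284 and 287 FPKM in the double-mutants (84.6 ± 54.4 against 285 ± 2.36 FPKM, SD, n = 2), a mean 3.37-fold higher in double-mutants (log2 fold change -1.90 ± 0.52 SE, adjusted p = 0.456). Each triple-mutant tumor lay below each double-mutant tumor. Aldoa, the common form, measured 852 and 1112 FPKM against 812 and 1360 FPKM (log2 fold change -0.11 ± 0.39 SE). The Aldoc promoter stretch held no ACGTG. Aldoc made up 5.14% and 9.97% of aldolase RNA against 25.9% and 17.4%, a difference of -14.1 percentage points (exact permutation p = 0.333). In all, 40 such step sums, shares and ratios were compared, 13 of them separated the genotypes, and 0.333 became 1 after Benjamini-Hochberg adjustment.

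**Figure D3:**
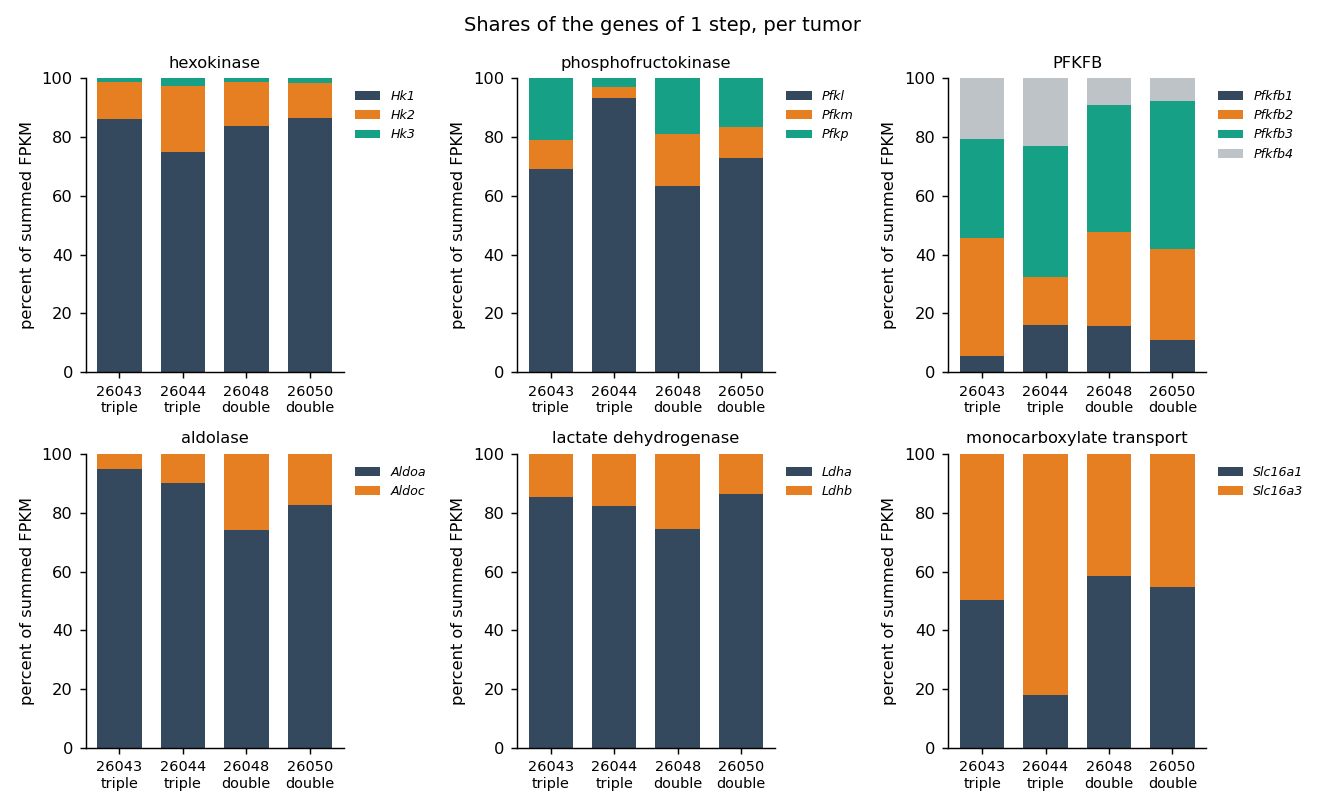
Share of each gene in the summed FPKM of its step, in percent, in each of the 4 tumors. The Aldoc part of aldolase is larger in both double-mutant tumors, Pfkl fills 93.3% of phosphofructokinase in 26044, and Slc16a3 fills 82.0% of the monocarboxylate transporters there.

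Below aldolase the abundant genes differed more within a genotype than between genotypes. Tpi1, triosephosphate isomerase, Gapdh, Pgk1, Pgam1 and Eno1 were each higher in 26044 than in 26043 and higher in 26050 than in 26048. Gapdh, which makes NADH, measured 839 and 1132 FPKM against 879 and 1265 FPKM (log2 fold change -0.11 ± 0.36 SE), and Eno1 measured 307 and 774 FPKM against 400.3 and 874 FPKM. The fold between tumors of the same genotype reached 2.59 for Pgk1 in the triple-mutants and 2.18 for Eno1 in the double-mutants. Pkm, which makes pyruvate, measured 863 and 1375 FPKM against 1469 and 1073 FPKM, and so went the other way in the double-mutants.

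The tissue-restricted forms of these steps were low. Pgam2, the muscle mutase, measured 1.88 and 1.42 FPKM against 2.42 and 1.52 FPKM, next to Pgam1 at 304 and 527 FPKM against 327 and 613 FPKM. Eno2, the neuronal enolase, measured 2.18 and 2.08 FPKM against 0.782 and 1.58 FPKM, and Eno3, the muscle enolase, 5.11 and 9.24 FPKM against 2.81 and 3.98 FPKM (log2 fold change 0.86 ± 0.41 SE, adjusted p = 0.560). Both were higher in both triple-mutant tumors, yet Eno1 still supplied 97.7% to 99.4% of enolase RNA. Skeletal muscle markers other than Pygm were highest in 26050, where Acta1 stood at 19.97 FPKM and Ckm at 3.75 FPKM. Pygm was under 1 FPKM in every tumor and highest in 26044. Eno3 was highest in 26044 and Pgam2 in 26048. The part of muscle tissue in the Eno3 and Pgam2 values was not tested.

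To describe this pattern over the whole route, the most abundant member of each of the 12 steps from import to lactate dehydrogenase was taken (Slc2a1, Hk1, Gpi1, Pfkl, Aldoa, Tpi1, Gapdh, Pgk1, Pgam1, Eno1, Pkm and Ldha), a choice made after the values were seen and therefore not tested. Of these 12, 10 were higher both in 26044 than in 26043 and in 26050 than in 26048, beside 13 of all 37 tested members (35.1%) and 17.4% of all genes tested, and the exceptions were Hk1, lower in 26044, and Pkm, lower in 26050. Their median log2 difference was 0.69 within the triple-mutants and 0.76 within the double-mutants, where the medians over the 37 members were -0.038 and 0.42 and those over all genes -0.16 and -0.049. For 10 of the 12 the genotype difference was smaller than both differences within a genotype, beside 15 of the 37 members (40.5%) and 33.4% of all genes. The 12 genes summed to 4808 and 8281 FPKM in the triple-mutants and 5569 and 8282 FPKM in the double-mutants. Of the 12 genes 6 held ACGTG in a promoter window (Slc2a1, Aldoa, Pgk1, Pgam1, Pkm and Ldha) and 1, Ldha, held CACGTG. The count of 10 was the same in TPM, after median centring and with the midpoint of Cufflinks' interval.

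**Figure D4:**
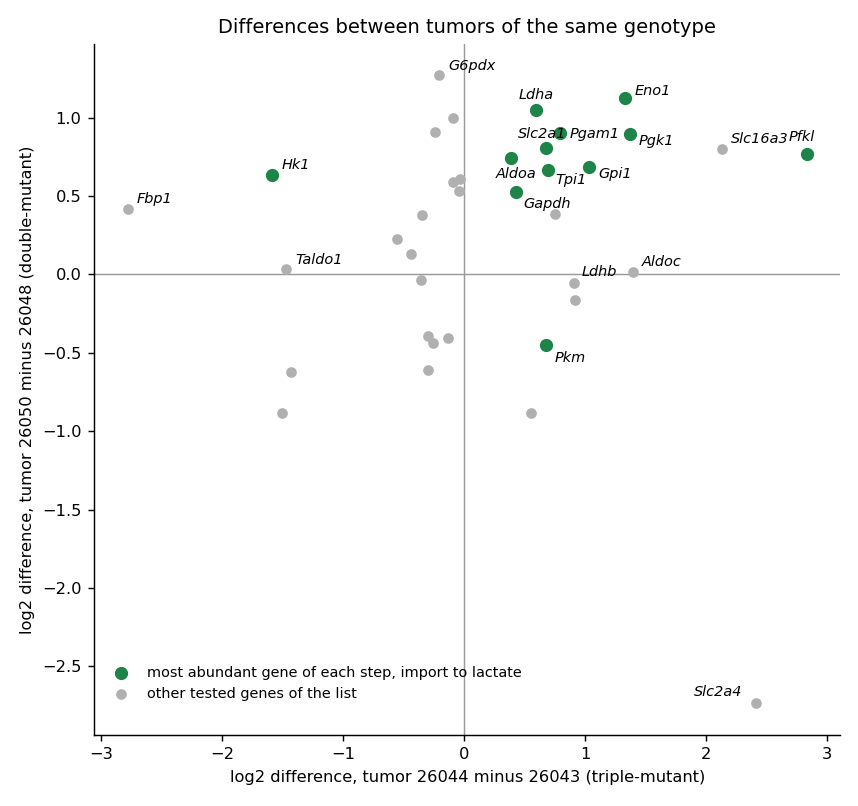
Log2 difference between the tumors of each genotype for the 37 tested members, triple-mutant on the horizontal and double-mutant on the vertical axis, both on log2(FPKM + 1). Of the 12 green points, the most abundant gene of each step from import to lactate, 10 lie in the upper right of the plot, above 0 on both axes; Hk1 lies to the left of 0 and Pkm below 0.

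Genes of the hypoxia response outside glycolysis were set beside this split. Of 13 such genes, 6 (Vegfa, Car9, Adm, Bnip3, P4ha2 and Pdk1) were likewise higher in 26044 than in 26043 and in 26050 than in 26048. For all genes tested that share was 17.4%. P4ha2 was nearly equal in the double-mutants, at 7.71 and 7.86 FPKM. Car9, a carbonic anhydrase, measured 0.741 and 5.40 FPKM in the triple-mutants and 2.66 and 9.03 FPKM in the double-mutants, and Bnip3 16.01 and 67.7 FPKM against 25.2 and 40.3 FPKM. Of the 13, 3 (P4ha1, P4ha2 and Mxi1) were higher in both triple-mutants, beside 21.3% of all genes. Only 1, Egln3, a prolyl hydroxylase, was higher in both double-mutants, beside 22.9% of all genes, and it had an unadjusted p under 0.05. The 13 genes summed to 347 and 424 FPKM against 431 and 342 FPKM. Of the 5 genes of cycling cells 3 followed the same split (summed 196 and 381 FPKM against 240.0 and 391.8 FPKM), though Mki67 and Rrm2 were higher in both double-mutants. Single genes weighed on these sums. Cdk1 measured 51.8 and 216 FPKM against 37.6 and 65.3 FPKM. Rrm2, which did not follow the split, measured 39.7 and 27.4 FPKM against 64.6 and 150 FPKM. Mki67 measured 22.5 and 25.1 FPKM against 39.9 and 38.5 FPKM. Of 8 NRF2 targets, 4 followed the split, Hmox1 among them (the 8 summed to 197 and 252 FPKM against 248 and 391 FPKM). Hmox1, Txnrd1, Srxn1 and Me1 were higher in both double-mutants, and 0 targets were higher in both triple-mutants. Luminal marker levels differed within the triple-mutants in the opposite direction to the 10 genes. The part of hypoxia, cycling or cell mixture in these values was not tested.

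Lactate dehydrogenase turns pyruvate into lactate. Ldha, the subunit that favors lactate formation, measured 596 and 901 FPKM against 617 and 1275 FPKM (log2 fold change -0.27 ± 0.48 SE). Ldhb, the heart subunit, measured 102 and 192 FPKM against 210.0 and 202 FPKM (log2 fold change -0.55 ± 0.39 SE, adjusted p = 0.661), lower in both triple-mutants. The Ldhb share was 14.6% and 17.6% against 25.4% and 13.7%, so it was high in 26048 alone and did not separate the genotypes (exact permutation p = 1).

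Lactate leaves or enters cells through monocarboxylate transporters. Slc16a1 (MCT1) measured 23.5 and 22.8 FPKM against 18.2 and 28.3 FPKM (log2 fold change 0.026 ± 0.33 SE), with a sign that turned in TPM, while Slc16a3 (MCT4, the exporter of glycolytic cells) measured 23.0 and 104 FPKM against 12.9 and 23.2 FPKM (log2 fold change 1.45 ± 0.80 SE, adjusted p = 0.597). Only 26044 was high for Slc16a3, and 26043 lay just below 26050. The Slc16a3 share of both transporters was 49.5% and 82.0% against 41.5% and 45.1%, higher in both triple-mutants by a mean of 22.5 percentage points (exact permutation p = 0.333). Without 26044 that difference was 6.23 points and the log2 fold change of Slc16a3 0.39. Their chaperones, which bring MCT proteins to the cell surface, were measured too, as non-members. Bsg (basigin) measured 551 and 1192 FPKM against 356 and 396 FPKM (log2 fold change 1.11 ± 0.46 SE, adjusted p = 0.532), and Emb (embigin) 63.9 and 112 FPKM against 8.53 and 29.0 FPKM (log2 fold change 2.34 ± 0.66 SE, adjusted p = 0.466). Both chaperones were higher in both triple-mutant tumors.

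In the oxidative arm of the pentose phosphate pathway, the 3 genes did not go together. G6pdx, which makes the first NADPH, measured 42.3 and 36.4 FPKM against 32.6 and 79.9 FPKM, high in 26050 only. Pgls, the lactonase after it, measured 216 and 168 FPKM against 112 and 109.7 FPKM (192 ± 33.4 against 111 ± 1.88 FPKM, SD, n = 2; log2 fold change 0.78 ± 0.27 SE, adjusted p = 0.500). Pgd, which makes the second NADPH, measured 73.1 and 61.7 FPKM against 92.9 and 175 FPKM (log2 fold change -0.92 ± 0.40 SE, adjusted p = 0.535). Pgls was thus higher, and Pgd lower, in both triple-mutant tumors. The Pgls FPKM was 2.51 to 3.20 times the midpoint of its own Cufflinks interval in each tumor, and those midpoints, 76.2 and 52.7 FPKM against 44.8 and 42.3 FPKM, kept the same order.

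The non-oxidative arm was mixed as well. Rpia, the ribose phosphate isomerase, measured 32.1 and 25.9 FPKM against 16.5 and 12.4 FPKM, a mean 2.01-fold higher in triple-mutants (log2 fold change 0.96 ± 0.31 SE, adjusted p = 0.480). Rpe, the epimerase acting on the same substrate, measured 13.6 and 9.75 FPKM against 17.7 and 19.5 FPKM (log2 fold change -0.64 ± 0.31 SE, adjusted p = 0.568). Neither overlapped between genotypes, and they went in opposite directions. Transketolase Tkt measured 110.1 and 103 FPKM against 103 and 207 FPKM, and Taldo1, transaldolase, 277 and 99.1 FPKM against 242 and 248 FPKM. Tkt was high in 26050 only, where G6pdx and Pgd were highest too, and Taldo1 was low in 26044 only. Of the 7 pentose phosphate genes 2 were higher and 2 lower in both triple-mutants, and 3 overlapped, shares near the 21.3% and 22.9% of all genes.

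Fructose bisphosphatase runs the phosphofructokinase step backward. Fbp1, the liver form, measured 14.0 and 1.18 FPKM against 7.57 and 10.5 FPKM, and Fbp2, the muscle form, 2.08 and 0.0856 FPKM against 2.16 and 0.716 FPKM. The genes lie next to each other on chromosome 13, and both were lowest in 26044, at 1.26 FPKM together against 9.73 to 16.03 FPKM in the other tumors. The Fbp1 level differed 11.9-fold between the highest and the lowest tumor, while the Cufflinks interval of Fbp2 in 26044 ran from 0 to 0.177 FPKM and gives no fold.

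The position of the members was set beside their values in 26044. Hk1 (chr10:62268855-62379908, mm10) and Pfkl (chr10:77986949-78009796, mm10) lie on the same chromosome and differed in opposite directions in that tumor. Hk1 stood at 0.323 times and Pfkl at 7.17 times its level in 26043. They were not the extremes of the list by fold. Pfkfb2, at 0.274 times, and Fbp1, at 0.0844 times, were lower, and the untested Slc2a3 was higher, at 8.81 times. Within 1 Mb of Pfkl, 20 of 23 tested neighbors were higher in 26044 than in 26043, with a median log2 difference of 2.16. Sumo3 was 5.55-fold and Pofut2 6.38-fold higher in 26044, and Col18a1, a collagen gene, 17.2-fold, while Itgb2, Cstb and Pdxk were not higher. Within 1 Mb of Hk1, 22 of 23 neighbors were lower in 26044, with a median log2 difference of -1.16. Ppa1 was at 0.320 times and Ddx21 at 0.346 times its level in 26043, and H2afy2 was the exception. In the double-mutant pair the same neighbors had median log2 differences of 0.10 around Pfkl and 0.04 around Hk1. Over all genes tested the medians were -0.16 (26044 minus 26043) and -0.049 (26050 minus 26048). The share of all genes higher or lower in 26044 was not counted. The neighbors named were picked after their values were seen, and the copy number of these segments was not analysed here.

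**Figure D5:**
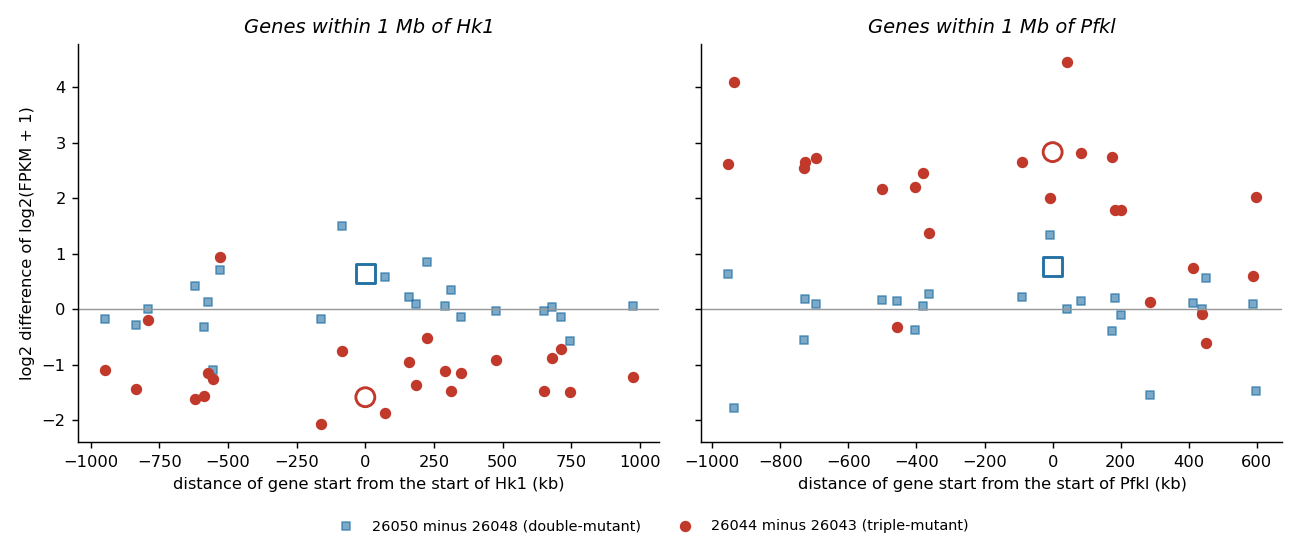
Log2 difference between tumors of the same genotype for tested genes within 1 Mb of Hk1 (left) and Pfkl (right), against the distance of their start in kb. Open symbols are Hk1 and Pfkl themselves; red circles compare 26044 with 26043 and blue squares 26050 with 26048, and the red circles lie mostly below 0 around Hk1 (22 of 23 neighbors) and mostly above 0 around Pfkl (20 of 23).

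Several other members also had neighbors that differed mostly in 1 direction between 26044 and 26043. Over all genes tested the median of that log2 difference was -0.16, so a lean to lower values was not particular to these neighbors. Of 28 neighbors of Hk2 25 were lower in 26044 than in 26043, with a median log2 difference of -0.48 where Hk2 itself differed by -0.55. Around Eno1 17 of 20 neighbors were higher, by a median of 0.16 where Eno1 differed by 1.33, and around Pfkfb2 11 of 13 were lower, by a median of -0.32 where Pfkfb2 differed by -1.43. Around Slc16a3 (chromosome 11) 41 of 51 neighbors were lower, with a median of -0.55, where Slc16a3 itself differed by 2.13, and around Aldoc the median genotype difference was -0.13 where that of Aldoc was -1.90. Chromosome 6 holds 7 members, among them Tpi1, Gapdh and Eno2, which lie within 1 Mb of each other. Around Rpia, on the same chromosome, the median genotype difference of 9 neighbors was 0.26, against 0.96 for Rpia.

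Of 53 listed symbols of other genes of these and adjoining sugar pathways, which name Tigar under both its symbols, 52 were found. Of these, 32 were tested, and 0 passed the adjusted threshold by limma. At an unadjusted p under 0.05, 3 were higher in triple-mutants and 1 in double-mutants, and 7 were higher in both triple-mutants and 6 in both double-mutants without overlap, beside 21.3% and 22.9% of all genes. Beside Bsg and Emb, Slc2a8, an intracellular hexose transporter, measured 12.1 and 14.6 FPKM against 7.57 and 3.42 FPKM, and Pck2, the mitochondrial PEP carboxykinase, 29.6 and 38.7 FPKM against 14.6 and 17.5 FPKM (log2 fold change 1.03 ± 0.30 SE, adjusted p = 0.471). Slc2a10, another transporter, measured 0.857 and 4.35 FPKM against 5.91 and 5.33 FPKM. Gpd1, the glycerol phosphate dehydrogenase of fat and liver, measured 7.95 and 1.77 FPKM against 138 and 22.3 FPKM (log2 fold change -3.51 ± 1.06 SE, adjusted p = 0.476). Pck1, the cytosolic PEP carboxykinase, stood at 94.3 FPKM in 26048 and below 0.1 FPKM elsewhere, in the tumor with the high adipocyte markers, whose part in the Gpd1 and Pck1 values was not tested.

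Among 14 tested regulators, 3 were higher in both triple-mutants and 3 in both double-mutants, beside 21.3% and 22.9% of all genes. Mycn, a Myc family factor, measured 8.40 and 12.6 FPKM in triple-mutants and 0.154 and 0.114 FPKM in double-mutants (log2 fold change 3.32 ± 0.35 SE, adjusted p = 0.143), whereas Myc measured 82.1 and 128 FPKM against 96.1 and 101 FPKM and overlapped. Hif1a, the oxygen-regulated factor, measured 17.8 and 16.7 FPKM against 22.5 and 29.9 FPKM (log2 fold change -0.57 ± 0.30 SE, adjusted p = 0.584). Its RNA was lower in both triple-mutant tumors and did not follow the split of 26044 and 26050. Myc RNA was higher in 26044 than in 26043 and, by the smaller step from 96.1 to 101 FPKM, in 26050 than in 26048. Of the regulators only 1, Myc, followed that split, beside 17.4% of all genes tested. Tigar, a p53 target that lowers fructose 2,6-bisphosphate and is listed under the older symbol 9630033F20Rik, measured 3.95 and 3.38 FPKM against 3.91 and 3.09 FPKM.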

How the data were processed

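PolyA RNA of 4 mouse mammary tumors was sequenced from strand-specific libraries as 50-bp single-end reads, 1 library per tumor. The authors aligned reads with TopHat2 2.0.10 and Bowtie 0.12.9 and estimated FPKM per gene with Cufflinks 2.1.1 (mm10 in the submitters' processing notes). The deposited tables hold FPKM with the bounds of Cufflinks' interval; these bounds did not enclose the value of 16 to 18 of the 39 members, depending on the tumor. The authors' read counts were not analysed here, so depth and counting error are unknown. Tables were joined on symbol and position, and 1 was added to starts, which count from 0.

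Genes reaching 1 FPKM in 2 or more tumors (12752) were fitted as log2(FPKM + 1), a scale that understates changes of low genes, with limma 3.58.1 in R 4.3.3 (eBayes with trend), triple- minus double-mutant, Benjamini-Hochberg over all genes, threshold 0.05. Step sums and shares were compared by two-sided exact permutation over tumors. The fit was tested on simulated data. Python 3.11.15, pandas 2.3.3 and numpy 2.4.6 were used. The members and lists were chosen with earlier results of these data known. All members are named; values per tumor are given for members of steps with several genes, those with an absolute log2 fold change of at least 1 or an unadjusted p under 0.05, and the 5 smallest changes. Genes of the other lists are named at an unadjusted p under 0.05, or at an absolute log2 fold change of at least 1 without overlap, and any others named were chosen after their values were seen. The result of 1 marker list is not reported here. Alternatives were TPM, a minimum of 5 FPKM or none, a pseudocount of 0.1, quantile normalization, median centring, limma without trend, the interval midpoint, and each tumor left out.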

Additional observations from a re-analysis of the deposited data

How the results depend on the processing

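No paired analysis was possible because the genotypes share no replicate numbers and no source used here says which tumors share a litter. The number of genes past the adjusted threshold was 6 after quantile normalization, 5 by limma without the trend and 1 with interval midpoints, against 0 as reported, and 0 members passed in any alternative; the cause was not tested. Of 290 member fold changes under settings other than a left-out tumor, 284 kept their direction; Slc16a1 turned to -0.0035 in TPM and -0.0046 after median centring, and Slc2a1 to -0.016 in TPM, -0.0020 after quantile normalization, -0.016 after centring and -0.087 with midpoints. With 1 tumor left out, the other tumor of that genotype being assumed to vary like the other genotype, 17 of 37 members kept their direction in every alternative. The remaining 20 ranged in log2 fold change from -0.39 to 0.42 for Slc2a1, -0.12 to 2.61 for Slc2a4, -0.56 to 0.47 for Gpi1, -0.20 to 2.63 for Pfkl, -0.71 to 0.21 for Pfkm, -0.34 to 0.041 for Pfkp, -0.48 to 0.26 for Aldoa, -0.38 to 0.15 for Gapdh, -0.91 to 0.46 for Pgk1, -0.61 to 0.29 for Pgam1, -0.38 to 0.065 for Pgam2, -0.94 to 0.39 for Eno1, -0.54 to 0.13 for Pkm, -0.80 to 0.25 for Ldha, -0.28 to 0.33 for Slc16a1, -1.01 to 0.26 for G6pdx, -0.95 to 0.045 for Tkt, -1.30 to 0.17 for Taldo1, -2.19 to 0.59 for Fbp1 and -1.10 to 0.40 for Fbp2. Members higher without overlap then numbered 6 to 11 in triple-mutants and 13 to 19 in double-mutants, since 3 tumors separate more readily than 4. The genotype difference ranged from -10.3 to 0.80 percentage points for the Hk1 share, -9.31 to 2.42 for the Ldhb share, -581 to 69.2 FPKM for summed lactate dehydrogenase and -25.9 to 537 FPKM for summed phosphofructokinase. Depth could not be read from FPKM, and 2 tumors per genotype limit each comparison.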
